A study of Mus musculus with 6 samples.

Results

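Transcript levels of 10 genes of the transforming growth factor beta (TGF-beta) family were compared between colon macrophages of wild-type (WT) and Gsdmd-/- mice. The genes are the ligand genes Gdf3, Gdf15, Inhba and Tgfb1, the receptor genes Tgfbr1 and Tgfbr2, the SMAD genes Smad2, Smad3 and Smad7, and Tgfbi, a gene named for its induction by TGF-beta. They were found by gene symbol, and all 10 were among the 17067 genes of each deposited table. Gdf3 was put in the set because of its strong fall in this comparison, so its values are given as a description without a test. The other 9 were chosen by family.

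The cells had been sorted from colon as CD45+CD11b+F4/80+, surface proteins of leukocytes (CD45), myeloid cells (CD11b) and macrophages (F4/80). The mice were C57BL/6 and 10 weeks old, and all of them, WT included, had been given dextran sulfate sodium (DSS), which injures the colon lining and causes colitis. There were 3 WT and 3 Gsdmd-/- samples and no samples from mice without colitis. Gsdmd encodes gasdermin D, which forms the membrane pore of pyroptosis. The labels do not say which part of Gsdmd was removed. Nor do they say that each sample is another mouse, so the p-values rest on a spread between samples that may be technical.

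TGF-beta family ligands are secreted dimers that bring together type I and type II receptor kinases. The type I receptor then phosphorylates receptor-regulated SMADs, of which SMAD2 and SMAD3 serve TGF-beta and activin, and these enter the nucleus with SMAD4. SMAD7 is induced by the pathway and inhibits it. In the colon, TGF-beta signalling shapes the differentiation of monocytes into resident macrophages and restrains inflammation. TGF-beta itself is secreted in a latent form and is released by integrins that contain the alpha V chain.

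Sequences upstream of 3 members are shown because the 2 receptor genes and Tgfbi were lower together in Gsdmd-/- samples on deposited values. They are the 250 bases before an annotated start, 5′ to 3′ on the strand of the gene, from RefSeq in GRCm38.p6. Windows were drawn for 7 of the 10 members, and not for Gdf3, Smad2 and Smad7. Capitals mark the SMAD box CAGAC (either strand, also written GTCTG) and the GC box GGGCGG (either strand), which did not overlap each other here. For Tgfbr1 (chr4:47352972-47353221, plus strand, the first of 2 annotated starts), Tgfbr2 (chr9:116175364-116175613, minus strand) and Tgfbi (chr13:56609336-56609585, plus strand) they read:
Tgfbr1: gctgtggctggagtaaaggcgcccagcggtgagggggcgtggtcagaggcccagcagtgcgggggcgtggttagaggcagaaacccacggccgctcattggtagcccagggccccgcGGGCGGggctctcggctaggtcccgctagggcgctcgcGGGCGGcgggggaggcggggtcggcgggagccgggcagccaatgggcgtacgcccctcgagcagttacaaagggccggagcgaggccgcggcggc
Tgfbr2: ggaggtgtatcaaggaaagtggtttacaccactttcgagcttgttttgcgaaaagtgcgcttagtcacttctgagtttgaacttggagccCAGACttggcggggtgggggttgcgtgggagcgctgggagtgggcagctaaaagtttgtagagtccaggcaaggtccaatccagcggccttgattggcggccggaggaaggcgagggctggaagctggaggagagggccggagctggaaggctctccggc
Tgfbi: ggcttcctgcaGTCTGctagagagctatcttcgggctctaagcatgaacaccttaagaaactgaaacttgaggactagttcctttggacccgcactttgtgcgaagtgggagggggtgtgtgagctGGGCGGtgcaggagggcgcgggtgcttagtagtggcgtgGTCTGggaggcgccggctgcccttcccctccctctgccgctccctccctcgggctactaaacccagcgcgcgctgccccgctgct

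The window of Tgfbi held 2 SMAD boxes and 1 GC box, that of Tgfbr2 1 SMAD box and no GC box, and that of Tgfbr1 2 GC boxes and no SMAD box, while the window at its other start held 1 SMAD box. Of 32851 annotated promoters of this length, 42.2% held a SMAD box and 32.7% a GC box, so both motifs are common. They were also present in members that were higher on deposited values. Gdf15 had 1 SMAD box and no GC box at each annotated start, and Tgfb1 had 5 GC boxes and no SMAD box. The window of Tgfbr1 was 74.8% G and C, that of Tgfbi 62.4% and that of Tgfbr2 58.4%. A match describes the letters and does not show that a factor binds there.

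Levels are in FPKM, fragments scaled to the length of the transcript and to the mapped fragments of the library, which can be compared between genes because they are per length. The depth of the 6 libraries, roughly estimated from the steps between low values, was about 19240000 to 19680000 fragments each, if the authors divided by full transcript length. The targeted gene Gsdmd was at 97.7, 99.4 and 97.4 FPKM in WT samples, and at 28.5, 29.0 and 29.7 FPKM in the Gsdmd-/- samples, so fragments were still counted for it. With 1 value per gene, the part of the transcript they came from cannot be told. Of the 3 genes behind the sort, Ptprc (CD45) went from 92.4 to 57.9, Itgam (CD11b) from 176.5 to 91.3 and Adgre1 (F4/80) from 291 to 216 FPKM. Markers of fibroblasts were higher in Gsdmd-/- samples: 7 of 7 tested markers rose, beside 40.6% of all tested genes. The sum over the 11 listed ran from 33.3 to 34.8 FPKM in WT and from 89.3 to 91.1 FPKM in Gsdmd-/-. The 7 had a median log2 change of 1.07, or 1.12 once the length and GC trend described further on was removed. The other 4 listed fibroblast markers were under the filter, with WT and Gsdmd-/- means of 0.183 and 0.287 FPKM for Pdgfra, 0.43 and 0.613 for Pdgfrb, 0.183 and 0.323 for Thy1 and 0.113 and 0.08 for Lum. Summed levels of the other marker lists, as ranges in WT and then Gsdmd-/- samples, were 1.96 to 3.91 and 11.02 to 12.3 FPKM for smooth muscle, 62.5 to 66.6 and 33.1 to 38.5 for endothelium, 3.01 to 3.48 and 1.79 to 2.11 for epithelium, 1.61 to 1.88 and 2.60 to 2.74 for T cells and 19.6 to 19.9 and 18.8 to 20.7 for B and plasma cells. They were 2.54 to 3.80 and 4.25 to 6.09 FPKM for neutrophils, 8.78 to 9 and 4.94 to 5.25 for eosinophils and mast cells, 8.20 to 9.05 and 10.7 to 11.4 for dendritic cells and 212 to 230 and 317 to 329 for platelets, against 8519 to 9043 and 9585 to 9692 for macrophages. These sums are led by the most abundant genes and do not give the direction of a list. Of the 10 macrophage markers, 4 rose and 5 fell (median log2 change -0.07), and 1 rose and 9 fell with the trend removed (median -0.18). Of the 3 tested endothelial markers, 1 fell and 2 did not pass, while 2 rose and 1 fell after removal of the trend. In bulk samples, fewer cells of a type and less RNA per cell cannot be told apart.

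The members covered a wide range of levels. In WT macrophages Tgfbi was highest, at 675 ± 2.37 FPKM, followed by Tgfb1 at 319 ± 15.4, Gdf3 at 58.3 ± 2.36, Tgfbr2 at 21.0 ± 0.276, Tgfbr1 at 7.58 ± 0.465, Inhba at 6.00 ± 0.320, Smad2 at 3.17 ± 0.0493, Smad7 at 1.35 ± 0.199, Gdf15 at 1.13 ± 0.176 and Smad3 at 0.207 ± 0.0252 FPKM (SD, n = 3 each). Neighbours in this order had separate sample ranges, apart from Smad7 and Gdf15, whose ranges overlapped. In Gsdmd-/- macrophages the order was the same with 1 exception: Inhba, at 5.62 ± 0.426 FPKM, stood above Tgfbr1, at 2.90 ± 0.266 FPKM (SD, n = 3 each). There too only Smad7 and Gdf15 overlapped among neighbours.

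**Figure D1:**
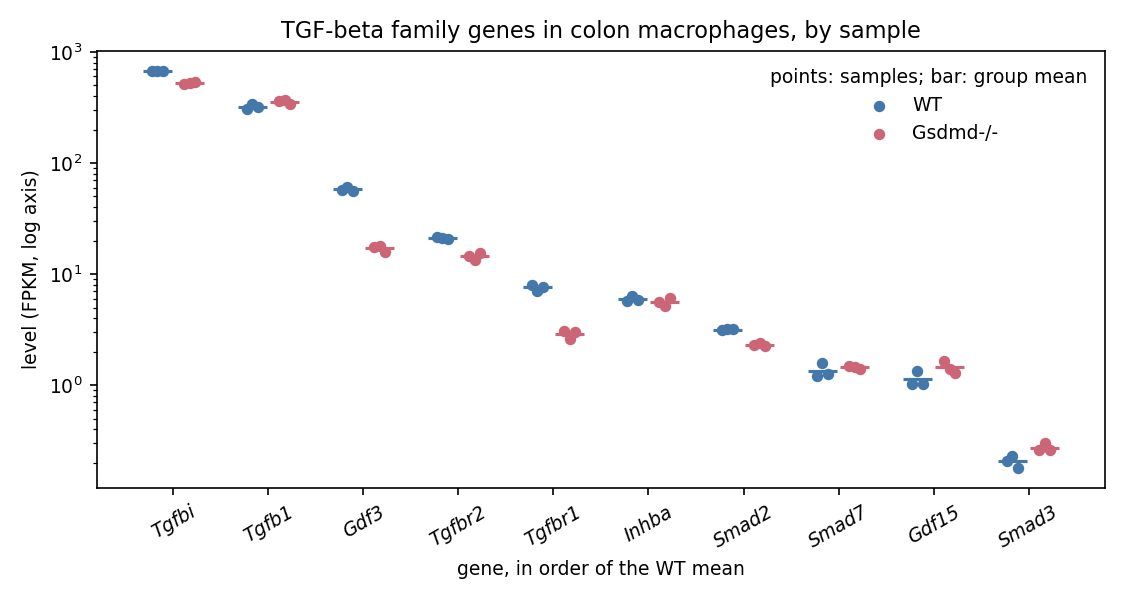
Level of each member (FPKM, log axis) in the 3 WT and 3 Gsdmd-/- samples, with genes in order of their WT mean, points for samples and bars for group means. The Gsdmd-/- samples of Gdf3 (15.9 to 17.7 FPKM) and Tgfbr1 (2.59 to 3.06 FPKM) lie far below the WT samples, while Inhba, Smad7 and Gdf15 overlap between groups.

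Genes were tested with limma on log2(FPKM + 1), over the 10005 genes with at least 1 FPKM in at least 3 samples, and a gene is said to have risen or fallen at a Benjamini-Hochberg adjusted p under 0.05. A log2 change is the Gsdmd-/- mean less the WT mean on this scale, where changes of low genes come out too small. Of the 9 members other than Gdf3, 8 were tested: 4 fell (Tgfbr1, Tgfbr2, Tgfbi and Smad2), 2 rose (Tgfb1 and Gdf15) and 2 did not pass (Inhba and Smad7). Their median log2 change was -0.21. Of all tested genes 77.5% passed, 40.6% up and 36.9% down, with a median log2 change of 0.03, so the share of members that passed was near the background. Sample ranges of the 2 groups did not overlap for 5 of the 8 members, 1 higher (Tgfb1) and 4 lower in Gsdmd-/-, beside 79.4% of all tested genes, 41.2% higher and 38.3% lower. The deposited values had a higher sum in every Gsdmd-/- library than in any WT library, whereas in TPM all samples have the same sum. Rescaled to TPM, 5 of the 8 fell (the same 4 and Inhba) and 3 did not pass. Beside them, 76.0% of all genes passed, 25.0% up and 51.0% down, with a median of -0.17 over all genes.

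Over 9853 genes, the log2 change had a Spearman rho of -0.65 with transcript length and 0.50 with GC content, as a description, and a smooth trend on both held 50.7% of its variance. The median log2 change was 0.52 for the shortest decile of transcripts and -0.48 for the longest. The 10 members differ widely in length, from 1545 bases for Gdf15 and 2125 for Gdf3 to 8092 for Tgfbr2, counting the longest protein-coding transcript. Each change is therefore also given with this trend removed, where 61.6% of 9853 genes passed, 30.1% up and 31.5% down. On that scale 4 of the 8 members fell (Tgfbr1, Tgfbi, Tgfb1 and Gdf15) and 2 rose (Inhba and Smad2), and of the 6 calls on deposited values only those of Tgfbr1 and Tgfbi had the same direction and passed again.

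**Figure D2:**
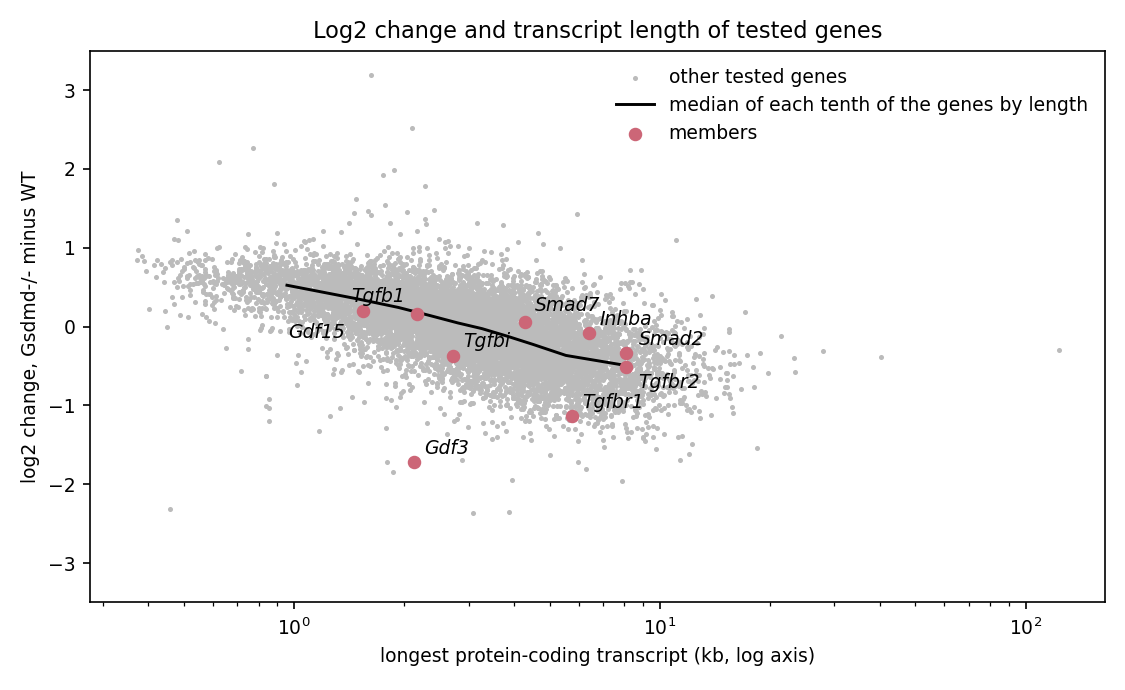
Log2 change (Gsdmd-/- minus WT) against the length of the longest protein-coding transcript (kb, log axis) for tested genes, with the median of each length decile as a line and the tested members as red points. Gdf3, at -1.72, lies far below the line at its length, and Tgfbr1, at -1.14, lies below it, while Tgfbr2, at -0.51, lies close to it.

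Gdf3 encodes a ligand of the family that is known from early embryos, where it acts with Nodal, and from fat tissue macrophages. It lies on chromosome 6 at 122605403 to 122610087 in GRCm38.p6, on the minus strand, has 2 exons, and no other annotated gene overlaps it. Its level was 57.4, 61.0 and 56.5 FPKM in WT samples, against 17.5, 17.7 and 15.9 FPKM in the Gsdmd-/- samples. All 3 Gsdmd-/- samples were below the lowest WT sample, and the mean was 0.292 of the WT mean. These levels correspond to about 2415 fragments per WT library and 705 per Gsdmd-/- library. Its log2 change was -1.72, and 12 of the 10005 tested genes (0.12%), Gdf3 among them, had a change of that size or lower. Gdf3 was chosen for its fall, so its rank here and on other scales restates that choice. In level it went from the 86.2th percentile of tested genes in WT to the 64.0th in Gsdmd-/-.

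The change of Gdf3 was of similar or larger size on other scales. It was -1.96 in TPM, -1.76 after quantile normalization and -1.85 without the length and GC trend, where 5 genes of 9853 (0.0507%) had a change of that size or lower. Leaving out each sample in turn gave -1.75 to -1.67. Relative to Inhba, another ligand gene, its level was 9.99, 9.59 and 9.59 times as high in WT and 3.10, 3.42 and 2.63 times as high in Gsdmd-/- samples. Over the 6 samples, the genes whose log2 levels were most like those of Gdf3 were Prkx, a protein kinase gene (Pearson r = 0.9995), Dag1, which encodes the matrix receptor dystroglycan (r = 0.9992), and Stx11, a syntaxin gene of vesicle fusion (r = 0.9991). With 2 groups of 3 samples such a measure mostly reflects the difference between groups, and 438 genes reached 0.99. The changes of these 3 genes were smaller than that of Gdf3, at -0.59, -0.85 and -0.36.

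Tgfb1 encodes TGF-beta 1, the main TGF-beta of immune cells, and was the most abundant ligand gene measured. It lies on chromosome 7 at 25687002 to 25705077. It was at 306, 336 and 316 FPKM in WT samples, and at 361, 368 and 340 FPKM in the Gsdmd-/- samples. The groups did not overlap, but the lowest Gsdmd-/- sample was close to the highest WT sample. Tgfb1 rose by 0.16 on the log2 scale (SE 0.0389, limma, adjusted p = 0.00278). This direction held only on some scales: it was -0.06 in TPM (adjusted p = 0.0802), -0.09 after quantile normalization (adjusted p = 0.0188) and -0.23 without the length and GC trend (adjusted p = 2.1e-05). The other TGF-beta genes Tgfb2 and Tgfb3 were at 0.2 FPKM or less in both group means.

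Inhba encodes the beta A subunit, whose dimer is activin A. It lies on chromosome 13 at 16004256 to 16031609, and the annotated noncoding genes within its span share no exon bases with it. It was at 5.75, 6.36 and 5.89 FPKM in WT samples, and at 5.65, 5.18 and 6.03 FPKM in the Gsdmd-/- samples, so the groups overlapped. Its log2 change was -0.08 (SE 0.0658, limma, adjusted p = 0.274). Without the length and GC trend it was 0.50 (limma, adjusted p = 5.38e-05), and in TPM -0.29 (adjusted p = 0.00254).

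Gdf15 encodes a stress-induced ligand that signals through a receptor of the hindbrain. It lies on chromosome 8 at 70629393 to 70632470, and it was close to the filter, at 1.02, 1.33 and 1.03 FPKM in WT samples, against 1.64, 1.39 and 1.30 FPKM in the Gsdmd-/- samples. The highest WT sample was above the lowest Gsdmd-/- sample. Gdf15 rose by 0.20 on the log2 scale (SE 0.0852, limma, adjusted p = 0.0477). The call was lost in TPM (0.10, adjusted p = 0.421) and without any one of WT replicates 1 and 3 and Gsdmd-/- replicates 1 and 2 (adjusted p 0.0677 to 0.177), and the change was -0.30 without the length and GC trend (adjusted p = 0.00472).

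Tgfbr1 encodes the type I receptor of TGF-beta, also called ALK5, and lies on chromosome 4 at 47353222 to 47414926. It was at 8.04, 7.11 and 7.58 FPKM in WT samples, and at 3.06, 2.59 and 3.04 FPKM in the Gsdmd-/- samples. Every Gsdmd-/- sample was below all WT samples by a wide margin, and the mean was 0.382 of the WT mean. Tgfbr1 fell by 1.14 on the log2 scale (SE 0.0705, limma, adjusted p = 3.52e-08). Beside it, 2.23% of all tested genes had a log2 change of -1 or lower. Without the length and GC trend the log2 change was -0.58 (SE 0.0594, adjusted p = 1.1e-05), smaller than as deposited, and the call was kept in all 18 other settings tried.

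Tgfbr2 encodes the type II receptor, which binds TGF-beta first and activates the type I chain. It lies on chromosome 9 at 116087695 to 116175363. It was at 21.3, 20.9 and 20.8 FPKM in WT samples, and at 14.5, 13.4 and 15.4 FPKM in the Gsdmd-/- samples. The groups were far apart, and the mean was 0.687 of the WT mean. Tgfbr2 fell by 0.51 on the log2 scale (SE 0.0518, limma, adjusted p = 2.13e-06). Without the length and GC trend the log2 change was -0.10 and did not pass (limma, adjusted p = 0.0618), while with the median in place of the longest transcript it was -0.21 (adjusted p = 0.00113).

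The ratio of the 2 receptor transcripts also differed. Tgfbr2 was 2.65, 2.95 and 2.75 times as high as Tgfbr1 in WT and 4.73, 5.18 and 5.08 times as high in Gsdmd-/- samples. The level of the ligand gene Tgfb1 was 42.3 ± 4.65 times that of Tgfbr1 in WT and 124 ± 16 times in Gsdmd-/- samples (SD, n = 3 each), with no overlap. Scaling of a whole library cancels in these ratios, whereas a trend on transcript length does not. As deposited, the log2 changes of Tgfb1, Tgfbr1 and Tgfbr2 were 0.16, -1.14 and -0.51. Without the length and GC trend they were -0.23, -0.58 and -0.10, which lie closer together.

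Of the receptor-regulated SMADs, Smad2 was at 3.11, 3.20 and 3.19 FPKM in WT samples, and at 2.29, 2.40 and 2.23 FPKM in the Gsdmd-/- samples, without overlap. Smad2 fell by 0.33 on the log2 scale (SE 0.0629, limma, adjusted p = 0.000406). The direction depended on the length ascribed to its transcript: without that trend the log2 change was 0.22 with the longest transcript (8089 bases, adjusted p = 0.0131) and -0.37 with the median one (adjusted p = 0.000218). Smad3 was listed at 0.210, 0.230 and 0.180 FPKM in WT samples, and at 0.260, 0.300 and 0.260 FPKM in the Gsdmd-/- samples, under the filter in every library. Its 3 Gsdmd-/- samples were above its WT samples, but this level is only about 20.5 fragments per WT library if counted over its longest transcript and 1.73 over its shortest. Without the filter Smad3 had a log2 change of 0.08 (limma, adjusted p = 0.162).

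Smad7, the inhibitory SMAD, was at 1.21, 1.58 and 1.27 FPKM in WT samples, and at 1.48, 1.46 and 1.41 FPKM in the Gsdmd-/- samples. The Gsdmd-/- samples lay within the range of the WT samples. Its log2 change was 0.06 (SE 0.0780, limma, adjusted p = 0.487), and 0.05 without the length and GC trend (adjusted p = 0.613). With the trend on the median transcript length it was -0.34 (adjusted p = 0.00126).

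Tgfbi encodes a secreted matrix protein that binds integrins and collagens, and it was the most abundant member in every sample. It lies on chromosome 13 at 56609586 to 56639359, and its longest transcript has 17 exons. It was at 678, 674 and 673 FPKM in WT samples, and at 512, 520 and 533 FPKM in the Gsdmd-/- samples. The WT samples lay close together and all Gsdmd-/- samples were lower, with a mean of 0.773 of the WT mean. Tgfbi fell by 0.37 on the log2 scale (SE 0.0242, limma, adjusted p = 5.45e-08). The log2 change was -0.50 without the length and GC trend, and the call was kept in all 18 other settings.

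**Figure D3:**
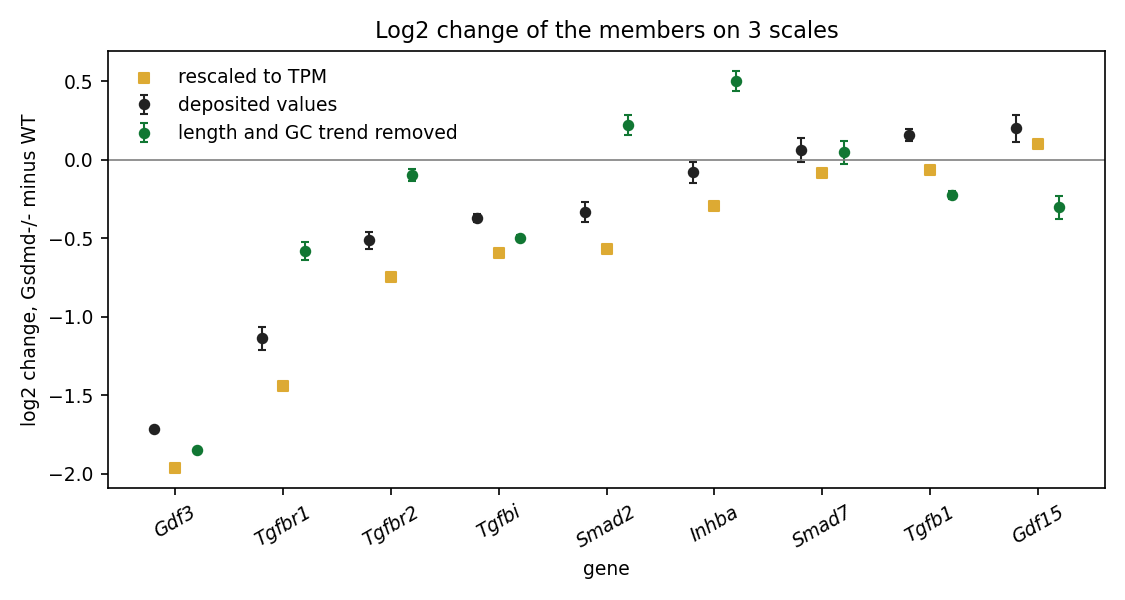
Log2 change (Gsdmd-/- minus WT) of the 9 members above the filter on deposited values (black), rescaled to TPM (squares) and without the length and GC trend (green), with bars of ±1 SE on the black and green points other than those of Gdf3, which was not tested. Gdf3, Tgfbr1, Tgfbr2 and Tgfbi are below 0 on all 3 scales, and Smad2, Inhba, Smad7, Tgfb1 and Gdf15 change sign between scales.

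Outside the members, 113 genes of the pathway were listed, 104 were in the tables and 58 passed the filter. Of these 58, 20 rose and 29 fell on deposited values (limma, adjusted p under 0.05), with a median log2 change of -0.10, beside 40.6% of all tested genes that rose and 36.9% that fell, with a median of 0.03. Without the length and GC trend, 20 rose and 24 fell with a median of -0.11, beside 30.1% up, 31.5% down and a median of -0.0015 for all genes. Of the 58, 34 genes passed in the same direction on both scales. Of 22 other ligand genes in the tables only Bmp2 passed the filter, with 2.21 ± 0.0656 (WT) and 2.08 ± 0.176 FPKM (Gsdmd-/-) (n = 3 each, ± SD, log2 change -0.06, limma, adjusted p = 0.428).

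Among other receptors and co-receptors, 6 of 9 tested genes fell and 3 rose, with a median log2 change of -0.53, beside 36.9% down and 40.6% up among all tested genes. The counts of each list that follows stand against these same shares on deposited values. Counts without the length and GC trend stand against 31.5% down and 30.1% up among all genes on that scale. Bmpr2, the type II receptor of bone morphogenetic proteins (BMPs), fell from 9.35 ± 0.381 to 3.62 ± 0.308 FPKM (n = 3 each, ± SD, log2 change -1.16), and -0.44 without that trend. Acvr1, a type I receptor of BMPs and activins, fell from 14.8 ± 0.539 to 10.3 ± 0.0854 FPKM (log2 change -0.49, and -0.42 without that trend). Rgmb, a BMP co-receptor, fell by 0.56 on the log2 scale, and by 0.19 without that trend. Acvr2a, a type II receptor of activins, fell by 0.70 on the log2 scale as deposited, but its change was -0.12 without that trend and did not pass (limma, adjusted p = 0.215). Without that trend, 5 of the 9 fell and 2 rose, with a median of -0.19. The genes that rose on both scales were Acvrl1, a type I receptor known from endothelium (log2 change 0.25 as deposited), and Bambi, a pseudoreceptor that blocks signalling (0.41). In TPM the change of Acvrl1 was 0.07 and did not pass (limma, adjusted p = 0.423).

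Of the other SMADs, Smad4, the common partner of the receptor-regulated SMADs, fell from 13.3 ± 0.435 to 8.48 ± 0.406 FPKM (n = 3 each, ± SD, log2 change -0.59, and -0.52 without that trend). Smad1, which serves BMP receptors, fell from 5.33 ± 0.0577 to 3.71 ± 0.18 FPKM (log2 change -0.43, and -0.37 without that trend). Smad6, an inhibitory SMAD, rose by 0.14 on the log2 scale (limma, adjusted p = 0.0418) but was at -0.10 without that trend, without passing (adjusted p = 0.132). Smad5 and Smad9 were under the filter.

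Genes of latency, activation and extracellular antagonism moved both ways, with 5 of 13 tested higher and 6 lower, and a median log2 change of -0.007. Without that trend 6 were higher and 5 lower, with a median of 0.009. Itgav, the alpha V integrin chain that releases TGF-beta from its latent complex, fell from 26.8 ± 1.88 to 8.61 ± 0.293 FPKM (n = 3 each, ± SD, log2 change -1.53, and -0.97 without that trend). Twsg1, a modulator of BMP binding, fell by 0.92 on the log2 scale (-0.64 without that trend). Dcn, the matrix proteoglycan decorin that binds TGF-beta, rose from 5.38 ± 0.515 to 11.4 ± 1.04 FPKM, and Bmp1, a protease that processes matrix proteins and ligand complexes, from 1.5 ± 0.217 to 3.74 ± 0.141 FPKM (SD, n = 3 each). Dcn is itself on the fibroblast marker list, which was higher in the same samples, and the part of this in the result was not tested.

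Of 21 tested intracellular regulators of SMAD signalling, 12 fell and 4 rose, with a median log2 change of -0.20. Skil, which encodes the SMAD corepressor SnoN, fell from 55.8 ± 2.57 to 26.3 ± 1.51 FPKM (n = 3 each, ± SD, log2 change -1.06), Usp9x, a deubiquitinase of SMAD4, by 1.06 and Rnf111, the ubiquitin ligase Arkadia, by 0.98 on the log2 scale. Stub1, a ubiquitin ligase of SMAD proteins, rose by 0.74. Without that trend these 4 genes had log2 changes of -0.45, -0.31, -0.65 and 0.30 and still passed, but the list had 6 members lower and 7 higher, with a median of 0.01.

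Textbook target genes of the pathway, Tgfbi and Smad7 apart, moved both ways: of 17 tested, 9 rose and 5 fell, with a median log2 change of 0.14. Ctgf, a matrix-associated growth factor gene, rose from 4.27 ± 0.151 to 7.86 ± 0.41 FPKM and the collagen gene Col1a1 from 4.36 ± 0.334 to 13.4 ± 0.452 FPKM (SD, n = 3 each). Skil, given above, fell. Ctgf and Col1a1 had log2 changes of 0.69 and 1.52 without that trend, and the list then had 6 higher and 8 lower, with a median of -0.10. Col1a1 is also a fibroblast marker, and the 7 tested fibroblast markers had a median log2 change of 1.07 in the same samples, whose part in these rises was not tested.

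**Figure D4:**
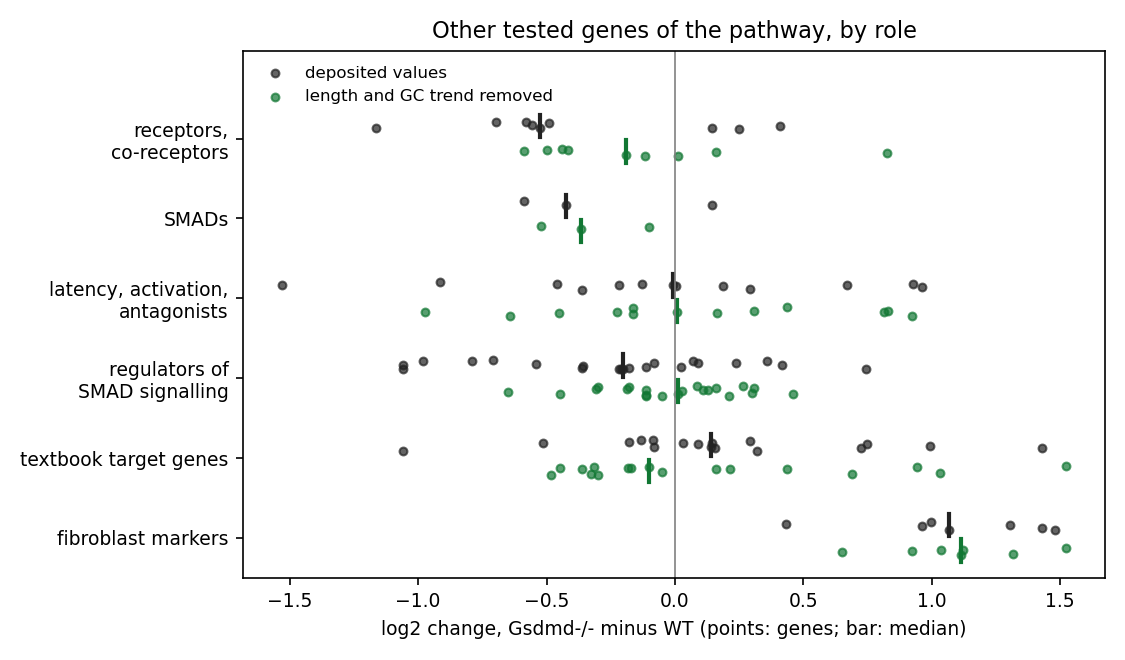
Log2 changes (Gsdmd-/- minus WT) of tested pathway genes outside the members, by role, and of fibroblast markers, on deposited values (black) and without the length and GC trend (green), with points for genes and bars for medians. Receptors have medians of -0.53 and -0.19, regulators of SMAD signalling of -0.20 and 0.01, and fibroblast markers lie above 0 on both scales.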

How the data were processed

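Macrophages were sorted from colons of mice with DSS colitis and their RNA was sequenced on the BGISEQ-500, per the labels' protocols. The deposited tables hold 1 value per gene and sample with no stated unit. They were read as FPKM values computed by the authors, since their sums differ between samples, as those of TPM or CPM would not. These sums separated the genotypes: 476271, 485411 and 478136 for the WT libraries, against 563211, 565388 and 551502 for the Gsdmd-/- libraries. The cause of this gap was not tested. Low values also tended to move in steps that shrank with transcript length, a further reason for this reading. That step pattern was weak, so the unit and the depth are inferences. The submitters' processing notes name Bowtie2 version 2.2.5 and build GRCm38.p6. The quantification program, its annotation and its use of strand were not given in the sources used here. Depth was estimated from those steps in genes with 1 protein-coding transcript.

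Groups came from the genotype labels. Because FPKM values are not counts, limma version 3.58.1 (R 4.3.3, trend and robust settings) was run on log2(FPKM + 1) over all genes with at least 1 FPKM in at least 3 samples, and p-values were adjusted over all of them. With 3 samples a group, the smallest two-sided p of an exact permutation test is 0.1. Transcript length and GC content were those of the longest protein-coding transcript in GENCODE M21, found for 98.5% of tested genes, and their trend was removed per sample with splines. In simulated data for this comparison (9891 genes), limma found 99% of genes with a log2 change of 0.5, found 100% of genes with one of 1, and called 0.0826% of unchanged genes. A simulated length trend raised the share of unchanged genes called to 64.7% (9900 genes), and its removal brought it to 0.732% (9758 genes). That simulated trend followed the same transcript lengths that the removal used and had no GC part. It therefore cannot show how the removal does where the length ascribed to a gene is wrong. Changes were planted only in genes with a WT level well above the filter, so the shares found do not cover genes near it. The spread between simulated samples was a fixed setting and was not estimated from these samples. The shares depend on that setting and do not measure how limma does on the real samples.

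The members and gene lists were chosen with earlier results of these data known. Named genes are the members, Gsdmd, up to 4 tested genes per pathway list with the smallest p, and the 3 genes most like Gdf3. One gene that this rule names is not reported here. Named beside these after their values were seen were Acvrl1, Bambi, Tgfb2, Tgfb3, Smad5, Smad9, the genes of the sort (Ptprc, Itgam and Adgre1), the fibroblast markers under the filter, and the genes near Gdf3 (Apobec1, Dppa3, Nanog, Slc2a3 and Mfap5). Alternatives covered pseudocount, filter, scaling, trend removal, model settings and each replicate left out. Cell type marker lists were described by summed levels, counts and medians.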

Additional observations from a re-analysis of the deposited data

How the results depend on the processing

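Tgfbi and Tgfbr1 kept their direction and call in all 18 other settings, and Tgfbr2 in 16, the exceptions being the length and GC trend removed with and without the replicate block. With that trend removed, the direction turned for Gdf15 (-0.30), Inhba (0.50), Tgfb1 (-0.23) and Smad2 (0.22), with the same values when the replicate block was added. With the median transcript length in that trend, a setting chosen after seeing the data, it turned for Gdf15 (-0.21), Inhba (0.27), Tgfb1 (-0.13) and Smad7 (-0.34), and 1 of the 8 tested members other than Gdf3 rose and 7 fell, against 2 and 4 as reported. Of all 9852 genes tested in that setting, 3497 rose and 3129 fell. In TPM, Tgfb1 (-0.063) and Smad7 (-0.084) turned, and after quantile normalization Tgfb1 (-0.087). The cause was not tested.

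The number of these members that rose was 1 without the filter, with a mean of at least 5 FPKM, with median ratio scaling and after quantile normalization. The riser was Tgfb1 in each of these settings except quantile normalization. There Gdf15 rose, while Tgfb1 fell (limma, adjusted p = 0.0188). With a mean of at least 5 FPKM only 5 of these members were tested, and Gdf15 was not among them. The number that rose was 0 in TPM (limma, also 0 at an unadjusted p under 0.05) and 1 to 2 when 1 replicate was left out. Over all genes, 2498 rose in TPM against 4059, and 2459 fell with the stricter filter, which tests fewer genes, against 3693. Of other pathway genes, 11 rose in TPM and 12 rose and 19 fell with the stricter filter, against 20 and 29. With the replicate number as a block 1 member rose, Gdf15 being lost (adjusted p = 0.0505). Same-numbered samples had correlations of deviations of -0.0818, 0.132 and 0.0143, and differently numbered ones of -0.166 to 0.160. No pairing by number was seen, but so few samples cannot exclude one. Depth limits Smad3 most.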

Other observations

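Of genes near Gdf3 on chromosome 6, chosen by position, the 5 described here had smaller changes than Gdf3 or were under the filter. Apobec1, which encodes an RNA-editing cytidine deaminase and ends before Gdf3 begins (122577792 to 122603024 in GRCm38.p6), had a level of 91.4 ± 1.06 FPKM (WT) against 88.6 ± 1.35 FPKM (Gsdmd-/-), each with its SD over n = 3. Its log2 change was -0.04 (limma, adjusted p = 0.19), or -0.07 without the length and GC trend (adjusted p = 0.0278). On the other side, Dppa3, a gene of germ cells and early embryos, rose from 0.773 ± 0.303 to 1.68 ± 0.348 FPKM. Its log2 change was 0.60 (limma, adjusted p = 0.00105), or 0.26 without that trend, which did not pass (adjusted p = 0.102). Dppa3 has processed copies elsewhere in the genome, so its value is uncertain. Nanog, the next gene, was under the filter, with means of 0.443 (WT) and 0.77 FPKM (Gsdmd-/-). Slc2a3, which encodes the glucose transporter GLUT3 and follows Nanog, fell from 3.31 ± 0.112 to 2.49 ± 0.143 FPKM. Its log2 change was -0.30 (limma, adjusted p = 0.0011), or -0.16 without the length and GC trend (adjusted p = 0.0385). Mfap5 was under the filter, at means of 0.0933 (WT) and 0.29 FPKM (Gsdmd-/-).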
